A study of Mus musculus with 15 samples.

Results

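The Slc25 family holds the carriers that move metabolites, nucleotides, cofactors and metals across the inner mitochondrial membrane. Its members were taken as every gene symbol beginning with Slc25a, which gave 47 of the 23995 symbols listed for each library. They were measured by RNA sequencing in the periprostatic white fat, the adipose tissue around the prostate, of 15 male C57BL/6J mice killed at 26 weeks of age, with 5 mice in each of 3 groups. Mice of the HFD estradiol group were fed a high-fat diet (60 kcal% fat) and had a pellet under the skin that released 0.25 mg of 17β-estradiol, an estrogen, over 60 days. Those of the HFD placebo group were fed that diet with a placebo pellet. Those of the LFD group were fed a low-fat diet (10 kcal% fat) without a pellet, so diet and pellet placement change together in every comparison with LFD. Feeding of these diets started when the mice were 6 weeks old, pellets were implanted 12 weeks after that, and the fat was taken a further 8 weeks on. Each replicate is a different mouse, and the tissue was sequenced whole, so that fewer cells of a type and less RNA per cell cannot be told apart in any result below.

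Most Slc25 proteins are antiporters that sit in the inner membrane and exchange a molecule of the matrix for one of the intermembrane space. In white adipocytes the citrate carrier delivers the carbon from which fatty acids are made, the acylcarnitine carrier admits fatty acids for oxidation, and the adenine nucleotide carriers exchange cytosolic ADP for matrix ATP. Others bring in amino acids, coenzyme A, NAD, iron, phosphate and glutathione, and for several no substrate has been settled.

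Levels are given as scaled FPKM, which is the authors' deposited FPKM (fragments, corrected for transcript length and for the library's total) divided by 1 factor per library. Log2 fold changes are differences in log2(scaled FPKM + 1), so the change of a low gene is understated. A gene was tested with limma if its scaled FPKM reached 1 in at least 5 libraries, and a change was called at an adjusted p below 0.05. Of the 47 carriers, 21 were tested and 26 were not. The deposited FPKM summed to 37561 to 60725.5 in HFD estradiol libraries, 34544.3 to 105910 in HFD placebo libraries and 34448.6 to 38755 in LFD libraries. In a transcript of 2 kb, 1 scaled FPKM was estimated to stand for 36.7 to 96.3 fragments in HFD estradiol, 35.0 to 221 in HFD placebo and 20.7 to 40.2 in LFD, so low carriers are measured least precisely in LFD. The sequencing lanes, read from file names, split the groups: all HFD estradiol libraries lay on lane 6, HFD placebo libraries 1 to 3 on lane 5 and 4 and 5 on lane 6, and all LFD libraries on lane 5.

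The carriers were of very unequal abundance. Slc25a1, the citrate carrier, had the highest mean over the 15 libraries at 13.5 scaled FPKM. It was followed by the ADP/ATP carriers Slc25a4 (Ant1) at 10.5 and Slc25a5 (Ant2) at 9.32, the phosphate carrier Slc25a3 at 8.35, the glutathione importer Slc25a39 at 6.10 and the dicarboxylate carrier Slc25a10 at 4.57. These 6 genes held 57.2% to 60.8% of the family's summed FPKM in HFD estradiol, 59.4% to 62.2% in HFD placebo and 57.7% to 63.0% in LFD. The summed level of all 47 carriers averaged 81.1 ± 5.89 scaled FPKM in HFD estradiol, 79.0 ± 9.02 in HFD placebo and 99.8 ± 17.3 in LFD (SD, n = 5 each). The LFD sum was above 90 in all 5 mice, and among the 10 HFD mice it was above 90 in 1, placebo 4, at 94.0. The LFD median was 91.5, and LFD mouse 2 stood at 130.5. This separation depended on the scaling. As a share of the FPKM without Mir6236, a small RNA entry, the carriers held 0.232% to 0.279% in HFD estradiol. They held 0.237% to 0.319% in HFD placebo and 0.257% to 0.388% in LFD, so the ranges overlapped.

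**Figure D1:**
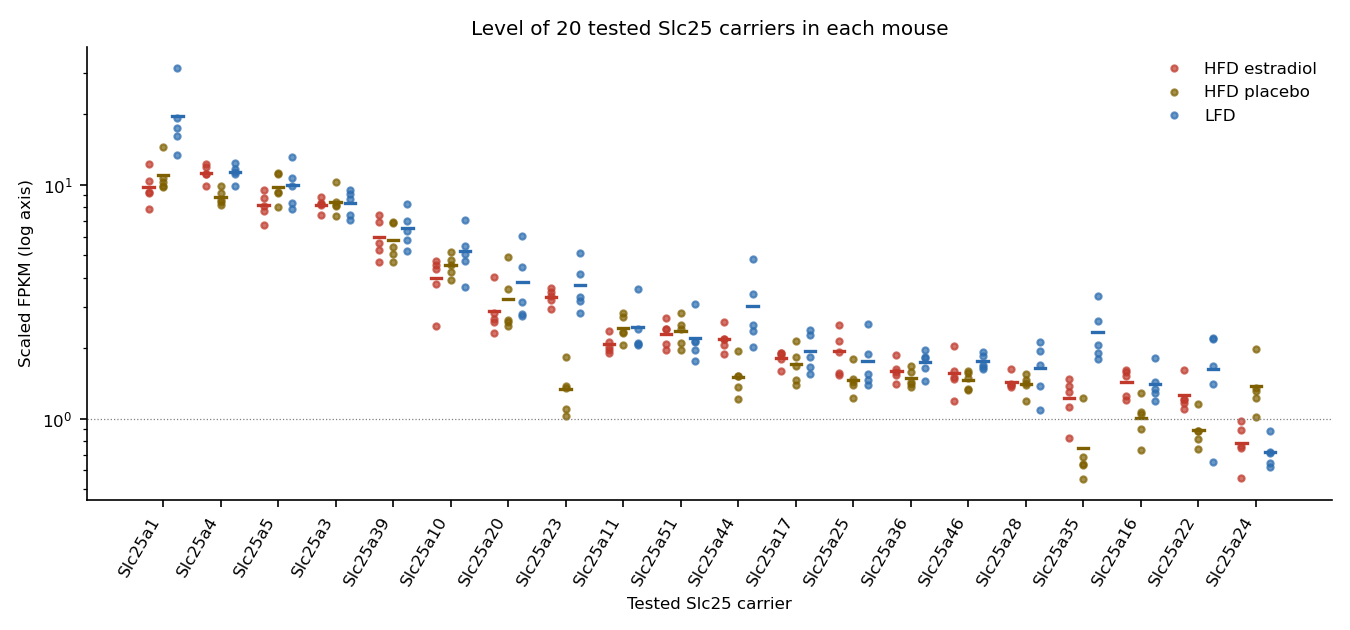
Scaled FPKM, on a log axis, of 20 of the 21 tested Slc25 carriers in each of 15 mice, ordered by mean level, with points for single mice, short bars for group means and a dotted line at 1. Slc25a1 stands highest in LFD, up to 31.7, and the 5 placebo mice alone stand above 1 for Slc25a24.

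Against LFD, HFD placebo fat had lower transcript levels of some carriers, among them carriers for nucleotides, citrate, amino acids and coenzyme A, and a higher level of 1 nucleotide carrier. Of the 21 tested carriers 7 fell (Slc25a23, Slc25a35, Slc25a1, Slc25a44, Slc25a22, Slc25a4 and Slc25a16) and 1 rose (Slc25a24). That is 38.1% of the carriers called, where 43.3% of all 5615 tested genes were called. By direction, 33.3% of the carriers fell against 22% of all tested genes, and 4.76% rose against 21.3%. Slc25a24 reached the tested level only through the 5 placebo libraries, so it had to differ, and its call is a description. The median log2 fold change of the tested carriers was -0.16, and that of all tested genes -0.01. All directions here and below are relative to the median gene. With FPKM as deposited the median of all tested genes itself lay 0.77 above LFD, and 5 carriers were called higher and 0 lower, where 53.9% of all tested genes were called. With FPKM rescaled to a constant sum that median lay 0.28 above LFD, and 2 carriers were called in each direction, where 40.9% of genes were called.

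Between the groups on the high-fat diet, single carriers were called, at a share below that of all tested genes. Of 6 tested nucleotide carriers 2 were called higher and 1 lower with estradiol. Of 4 tested cofactor carriers 1 was called higher, and of 2 tested carriers with no settled substrate 1 was called higher. Slc25a23, Slc25a35, Slc25a4 and Slc25a16 were higher in HFD estradiol than in HFD placebo and Slc25a24, chosen by the filter through its placebo values, was lower, which is 5 of 21 carriers or 23.8%, where 30.4% of all tested genes were called. The share that rose was 19%, against 14.3% of all tested genes, and the share that fell was 4.76%, against 16%. The median log2 fold change was 0.05, against 0.01 over all tested genes. With FPKM as deposited 0 carriers were called, where 4.92% of all tested genes were, and at a constant sum 1 higher and 1 lower, where 14.8% were. The placebo group takes part in both comparisons, so its values enter both with opposite signs.

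Between HFD estradiol and LFD, 2 of 21 carriers were called, Slc25a1 and Slc25a35, both lower with estradiol. That is 9.52%, where 7.69% of all tested genes were called and 3.74% were lower. None was higher, against 3.95% of all tested genes. With lane as a term neither was called, where 2.89% of all tested genes were, at limma adjusted p = 0.0538 for Slc25a1 and 0.0545 for Slc25a35. The differences themselves were larger, as were their SEs. Slc25a1 went from -0.89 (SE 0.18) to -1.19 (SE 0.31) and Slc25a35 from -0.58 (SE 0.13) to -0.81 (SE 0.22). No lane held both groups, so that fit links them only through the placebo libraries. With lane as a term the estradiol comparison with placebo called 1 carrier, Slc25a23, in place of 5, where 12.7% of all tested genes were called. Within lane 6, which holds 5 estradiol and 2 placebo libraries, Slc25a23 was also the only carrier called, where 12.1% of all tested genes were. Within lane 5, which holds 3 placebo and 5 LFD libraries, 7 of the 8 carriers called between placebo and LFD were called again, where 36.5% of all tested genes were. The exception was Slc25a22.

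**Figure D2:**
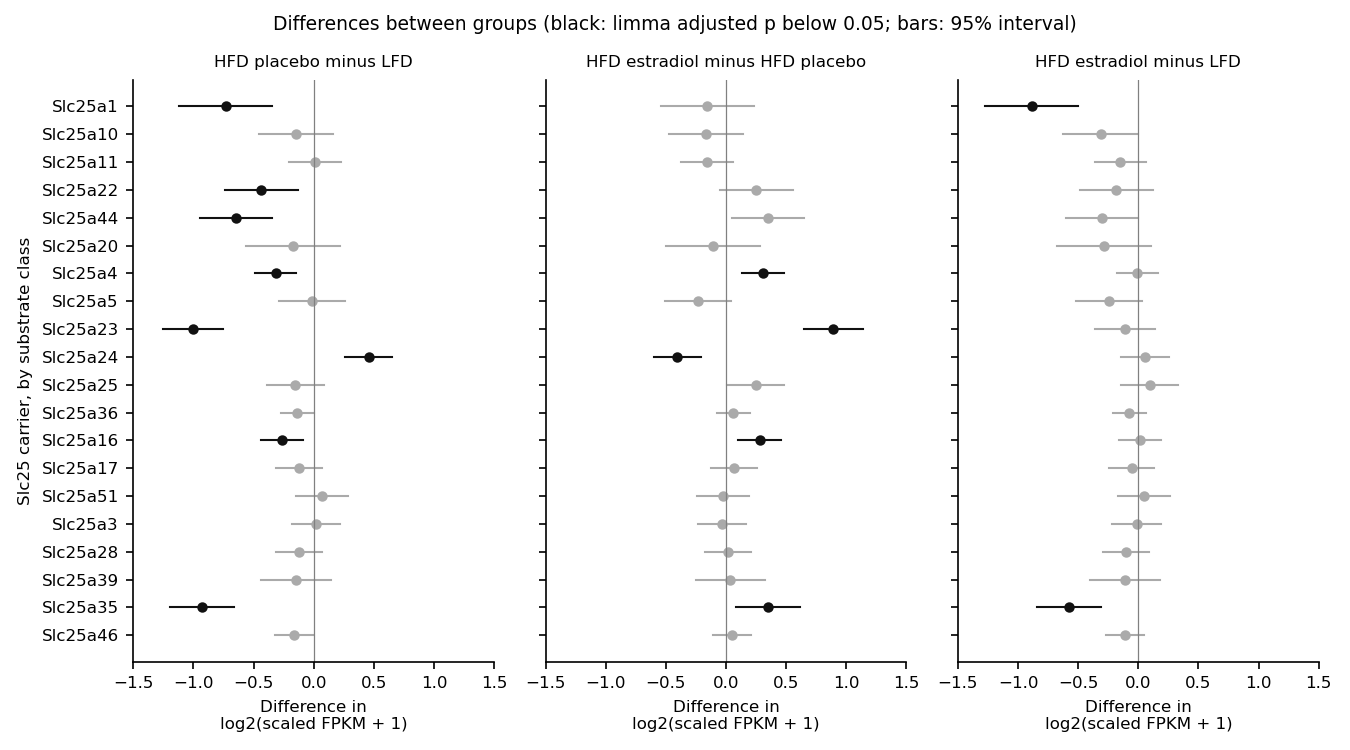
Difference in log2(scaled FPKM + 1) of 20 of the 21 tested carriers, ordered by substrate class, in 3 comparisons, with bars for 95% confidence intervals and black for a limma adjusted p below 0.05. Slc25a23 has the largest difference in both comparisons that involve placebo: it fell by 1.00 in placebo against LFD and rose by 0.89 with estradiol against placebo.

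Of the 9 nucleotide carriers 6 were tested. Slc25a23 had the largest difference of any tested carrier in both comparisons with placebo, and no nucleotide carrier was called between HFD estradiol and LFD. Slc25a23 and Slc25a24 are isoforms of the ATP-Mg/phosphate carrier, which is switched on by cytosolic calcium and sets the adenine nucleotide content of the matrix. Slc25a23 lies on chromosome 17 at 57043711 to 57059863 on the minus strand, and Slc25a24 on chromosome 3 at 109123149 to 109168457 on the plus strand (GRCm38, GENCODE vM21, both protein coding). Slc25a41, a short relative without the calcium-binding part, lies 2056 bases from Slc25a23 and was listed at 0 in all 15 libraries. The 250 bases before the start of each gene are shown because the pair moved in opposite directions, together with those of the citrate carrier Slc25a1. They are from RefSeq (GRCm38.p6), each on the strand of its gene, from chr17:57059864-57060113, chr3:109122899-109123148 and chr16:17928220-17928469. Capitals mark the matches, on either strand, to the CCAAT box (CCAAT), the GC box (GGGCGG) and the E-box (CACGTG).
Slc25a23: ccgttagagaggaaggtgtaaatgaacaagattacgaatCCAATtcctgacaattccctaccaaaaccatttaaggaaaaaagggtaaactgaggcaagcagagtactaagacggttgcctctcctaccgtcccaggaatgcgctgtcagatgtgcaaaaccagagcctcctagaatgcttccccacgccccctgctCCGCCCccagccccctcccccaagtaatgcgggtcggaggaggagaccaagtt
Slc25a24: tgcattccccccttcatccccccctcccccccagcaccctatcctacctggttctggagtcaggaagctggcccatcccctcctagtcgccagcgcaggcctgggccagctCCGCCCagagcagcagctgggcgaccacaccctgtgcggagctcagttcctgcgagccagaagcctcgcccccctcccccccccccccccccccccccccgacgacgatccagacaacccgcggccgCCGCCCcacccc
Slc25a1: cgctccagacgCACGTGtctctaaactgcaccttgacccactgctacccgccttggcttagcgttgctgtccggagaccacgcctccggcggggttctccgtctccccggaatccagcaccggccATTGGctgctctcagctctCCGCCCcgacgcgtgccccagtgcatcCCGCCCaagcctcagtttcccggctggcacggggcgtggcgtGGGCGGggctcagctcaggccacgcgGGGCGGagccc
The Slc25a23 window holds 1 CCAAT box and 1 GC box, the Slc25a24 window 2 GC boxes, and the Slc25a1 window 1 E-box, 1 CCAAT box and 4 GC boxes. Such matches are common: of all 32851 windows of this length 33.8% hold a CCAAT box, 32.7% a GC box and 6.02% an E-box. The table held windows for 36 of the 47 carriers, 46 windows in all. None of the 46 held the palindromic estrogen response element GGTCANNNTGACC, which 0.0639% of all windows hold, and none held TCAAGGTCA, the site of estrogen-related receptors, which 0.387% hold. Neither count says anything of a factor's binding, here or outside these windows.

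Slc25a23 had 2.94, 3.21, 3.34, 3.49 and 3.61 scaled FPKM in HFD estradiol mice 1 to 5, 1.02, 1.34, 1.38, 1.83 and 1.10 in HFD placebo mice 1 to 5, and 3.20, 5.11, 2.84, 4.17 and 3.30 in LFD mice 1 to 5. All placebo mice lay below every mouse of the other groups, and the estradiol and LFD mice overlapped. Slc25a23 fell by 1.00 on the log2 scale in HFD placebo against LFD (SE 0.12, limma adjusted p = 6.7e-06). For HFD estradiol against HFD placebo it was 0.89 (SE 0.12, limma adjusted p = 4.2e-05), and within lane 6 it was 0.82 (limma adjusted p = 0.0080). Between HFD estradiol and LFD the difference was -0.11, with a 95% interval from -0.36 to 0.14 (limma adjusted p = 0.626). With FPKM as deposited neither call held: the difference was -0.13 for placebo against LFD (limma adjusted p = 0.746) and 0.63 for estradiol against placebo (limma adjusted p = 0.542). Crb3, a gene on the opposite strand that overlaps Slc25a23 by 759 bases, reached at most 0.0278 scaled FPKM.

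Slc25a24 ran the other way. It had 0.978, 0.761, 0.556, 0.746 and 0.892 scaled FPKM in HFD estradiol mice 1 to 5, 1.98, 1.35, 1.31, 1.02 and 1.22 in HFD placebo mice 1 to 5, and 0.717, 0.713, 0.886, 0.621 and 0.647 in LFD mice 1 to 5. Every placebo mouse lay above every other mouse. Because its 5 placebo values alone brought it to the tested level, the filter fixed this separation, and its calls in both placebo comparisons are a description. The log2 fold change was 0.46 (SE 0.09) for HFD placebo against LFD and -0.40 (SE 0.09) for HFD estradiol against HFD placebo. Fitted without the filter, which does not select it, both were called (limma adjusted p = 0.0021 and 0.0076). Within lane 6 the second was -0.25 and did not pass (limma adjusted p = 0.157), and as deposited it was -0.66 and did not pass (limma adjusted p = 0.201). The ratio of Slc25a23 to Slc25a24 inside a library does not depend on the scaling. Its median was 4.21 in HFD estradiol (range 3.00 to 6.01), 0.995 in HFD placebo (0.516 to 1.80) and 5.10 in LFD (3.20 to 7.16). The separation of Slc25a24 that the filter fixed enters this ratio, so the ratio is a description too. Slc25a25, the other calcium-regulated isoform tested, averaged 1.94 ± 0.412 in HFD estradiol, 1.46 ± 0.212 in HFD placebo and 1.76 ± 0.470 in LFD and was called in no comparison.

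**Figure D3:**
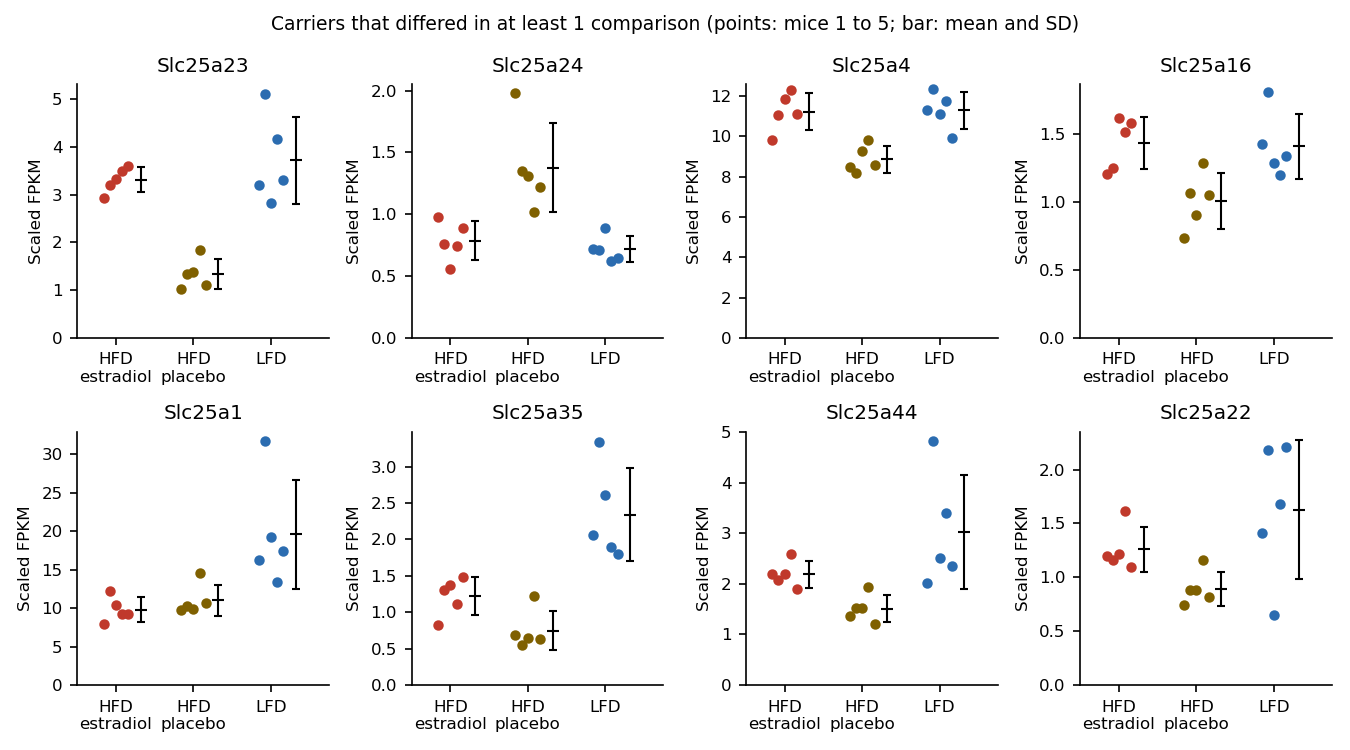
Scaled FPKM of the 8 carriers called in at least 1 comparison, with 1 point per mouse and bars for mean and SD (n = 5 mice a group). In the Slc25a23 panel all placebo mice lie between 1.02 and 1.83, below every estradiol and LFD mouse, and in the Slc25a24 panel they lie above every other mouse.

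The ADP/ATP carriers, which export ATP made in the matrix, differed from each other. Slc25a4 (chromosome 8, 46206797 to 46211284) had 9.85, 11.1, 11.9, 12.3 and 11.1 scaled FPKM in HFD estradiol mice 1 to 5, 8.47, 8.21, 9.26, 9.85 and 8.59 in HFD placebo mice 1 to 5, and 11.3, 12.4, 11.1, 11.7 and 9.91 in LFD mice 1 to 5. The placebo mice were lowest and did not overlap with LFD, while the highest placebo mouse reached the level of the lowest estradiol mouse. The log2 fold change was -0.32 (SE 0.08, limma adjusted p = 0.0050) for HFD placebo against LFD and 0.31 (SE 0.08, limma adjusted p = 0.0085) for HFD estradiol against HFD placebo, and 0.26 within lane 6 (limma adjusted p = 0.207). Both calls depended on the scaling: against LFD the placebo difference was 0.10 at a constant sum and 0.75 with FPKM as deposited, and for estradiol against placebo the difference was 0.25 at a constant sum and -0.022 as deposited, none of them called. Slc25a5 averaged 8.18 ± 1.06 in HFD estradiol, 9.78 ± 1.37 in HFD placebo and 9.99 ± 2.10 in LFD and passed in no comparison. The ratio of Slc25a4 to Slc25a5 inside a library had a median of 1.40 in HFD estradiol (1.16 to 1.65), 0.884 in HFD placebo (0.827 to 1.06) and 1.10 in LFD (0.941 to 1.42). The estradiol and placebo ranges of that ratio did not overlap. Reads shared by these similar genes may have been divided between them, and the method is not stated in the sources used here. Slc25a36, a pyrimidine nucleotide carrier, lay between 1.36 and 1.97 in all 15 mice with no call, and its relative Slc25a33 did not exceed 0.360.

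Of the 4 carriers of di- and tricarboxylates, 3 were tested and 1 changed. Slc25a1 (chromosome 16, 17925223 to 17928219, minus strand) had 7.88, 12.2, 10.4, 9.28 and 9.23 scaled FPKM in HFD estradiol mice 1 to 5, 9.75, 10.2, 9.85, 14.6 and 10.7 in HFD placebo mice 1 to 5, and 16.2, 31.7, 19.3, 13.4 and 17.4 in LFD mice 1 to 5. LFD mouse 2 was far above the others, and placebo mouse 4 lay above LFD mouse 4, while no estradiol mouse reached an LFD mouse. Slc25a1 fell by 0.73 on the log2 scale in HFD placebo against LFD (SE 0.18, limma adjusted p = 0.0041) and by 0.89 in HFD estradiol against LFD (SE 0.18, limma adjusted p = 0.0075). The difference of HFD estradiol from HFD placebo was -0.15, with a 95% interval from -0.54 to 0.23 (limma adjusted p = 0.565). Without LFD mouse 2 the fall in placebo was 0.55 and the fall with estradiol 0.70, both called. At a constant sum the falls were 0.30 and 0.52 and neither passed (limma adjusted p = 0.274 and 0.112), and as deposited the differences were 0.37 for placebo and -0.12 for estradiol, neither called.

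Slc25a10, which exchanges malate and succinate for phosphate, averaged 3.98 ± 0.907 in HFD estradiol, 4.52 ± 0.476 in HFD placebo and 5.20 ± 1.26 in LFD, with no call. Slc25a11, the oxoglutarate carrier of the malate-aspartate shuttle, averaged 2.08 ± 0.180, 2.45 ± 0.311 and 2.45 ± 0.648 in HFD estradiol, HFD placebo and LFD, again with no call. Slc25a21, which carries oxodicarboxylates of lysine breakdown, did not exceed 0.0451 in any mouse.

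The enzymes that make cytosolic acetyl-CoA and fatty acids from exported citrate were lower as well. All 7 listed genes of citrate formation and use were tested, and all 7 fell in HFD placebo against LFD, with a median log2 fold change of -1.08. As deposited that median was 0.02, below the 0.77 of all genes, and 2 of the 7 were called lower. At a constant sum 5 of the 7 were called lower. In the main fit 22% of all tested genes fell in this comparison. Acly, which splits citrate to acetyl-CoA, averaged 9.34 ± 4.74 scaled FPKM in HFD estradiol, 6.23 ± 0.516 in HFD placebo and 34 ± 22 in LFD. Its log2 fold change was -2.07 (limma adjusted p = 1.4e-04) for placebo against LFD and -1.65 (limma adjusted p = 0.0070) for estradiol against LFD. In HFD estradiol 6 of the 7 were lower than in LFD, where 3.74% of all tested genes were, against 4 at a constant sum and 0 as deposited. Acaca, acetyl-CoA carboxylase, was the only one called in estradiol against placebo, at 1.01 (limma adjusted p = 0.0065), and none was as deposited. The pyruvate carrier subunits Mpc1 and Mpc2, which are not Slc25 genes, fell by 0.97 and 0.41 in HFD placebo against LFD (limma adjusted p = 4.9e-04 and 0.0308) and by 0.75 and 0.51 in HFD estradiol against LFD (limma adjusted p = 0.0186 and 0.0396). As deposited neither subunit was called lower in either comparison, and at a constant sum neither was called in HFD estradiol against LFD.

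Of the 9 amino acid carriers 2 reached the tested level, and both fell in HFD placebo against LFD. Slc25a44 (chromosome 3, 88410498 to 88425139) imports branched chain amino acids, a role described in mouse brown fat. It had 2.19, 2.07, 2.19, 2.60 and 1.89 scaled FPKM in HFD estradiol mice 1 to 5, 1.36, 1.52, 1.52, 1.94 and 1.21 in HFD placebo mice 1 to 5, and 2.02, 4.83, 2.52, 3.40 and 2.36 in LFD mice 1 to 5. Every placebo mouse lay below every LFD mouse, and placebo mouse 4 was just above the lowest estradiol mouse. The log2 fold change was -0.65 (SE 0.14, limma adjusted p = 0.0016) for HFD placebo against LFD and 0.35 (SE 0.14) for HFD estradiol against HFD placebo, where it did not pass (limma adjusted p = 0.0747). The fall against LFD was 0.32 and not called at a constant sum (limma adjusted p = 0.0968), and as deposited the difference was 0.21.

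The enzymes that break these amino acids down changed in the same comparison. Of 9 tested genes 9 fell in HFD placebo against LFD (median log2 fold change -0.96), 8 rose in HFD estradiol against HFD placebo (median 0.60) and 3 were lower in HFD estradiol than in LFD. Over all tested genes 22%, 14.3% and 3.74% were called in these directions. As deposited none of the 9 was called, with medians of 0.02 for placebo against LFD and 0.29 for estradiol against placebo. At a constant sum 7 were called lower in placebo against LFD and 5 higher in estradiol against placebo. None was called there in estradiol against LFD. Bcat2, the mitochondrial branched chain aminotransferase, averaged 2.87 ± 0.301 scaled FPKM in HFD estradiol, 1.89 ± 0.404 in HFD placebo and 5.93 ± 1.40 in LFD. Its log2 fold changes were -1.25 for placebo against LFD and 0.43 for estradiol against placebo (limma adjusted p = 3.4e-06 and 0.0236).

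Slc25a22, a glutamate carrier (chromosome 7, 141429744 to 141437892), had 1.20, 1.16, 1.21, 1.62 and 1.10 scaled FPKM in HFD estradiol mice 1 to 5, 0.739, 0.881, 0.886, 1.16 and 0.815 in HFD placebo mice 1 to 5, and 1.41, 2.19, 0.652, 1.68 and 2.21 in LFD mice 1 to 5. LFD mouse 3 lay below every placebo mouse, so the groups overlapped. The log2 fold change for HFD placebo against LFD was -0.43 (SE 0.14, limma adjusted p = 0.0209). The call was lost without LFD mouse 2 or LFD mouse 5 (limma adjusted p = 0.0588 and 0.0600) and within lane 5 (-0.48, limma adjusted p = 0.0803), as well as at a constant sum (-0.18, limma adjusted p = 0.330) and as deposited (0.28). The aspartate-glutamate carriers Slc25a12 and Slc25a13, the second glutamate carrier Slc25a18, the ornithine carriers Slc25a2 and Slc25a15, the basic amino acid carrier Slc25a29 and the glycine carrier Slc25a38 were under the tested level. Their highest single values were 0.608 for Slc25a12, 0.385 for Slc25a13, 0.171 for Slc25a18, 0.109 for Slc25a2, 0.456 for Slc25a15, 0.253 for Slc25a29 and 1.01, in an LFD mouse, for Slc25a38.

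Among the 9 carriers with no settled substrate, Slc25a35 had the second largest fall among the tested carriers in both comparisons with LFD. It lies on chromosome 11 at 68968131 to 68974365. It had 0.821, 1.30, 1.37, 1.12 and 1.48 scaled FPKM in HFD estradiol mice 1 to 5, 0.683, 0.551, 0.641, 1.22 and 0.630 in HFD placebo mice 1 to 5, and 2.06, 3.34, 2.60, 1.90 and 1.80 in LFD mice 1 to 5. All 5 LFD mice lay above all mice on the high-fat diet, and placebo mouse 4 stood apart from the other placebo mice, within the estradiol range.

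Slc25a35 fell by 0.93 on the log2 scale in HFD placebo against LFD (SE 0.13, limma adjusted p = 2.7e-05) and by 0.58 in HFD estradiol against LFD (SE 0.13, limma adjusted p = 0.0105). The rise of 0.35 in HFD estradiol against HFD placebo (SE 0.13, limma adjusted p = 0.0454) was lost in 8 of 10 fits that left out 1 mouse, with adjusted p up to 0.107, and within lane 6 (0.21, limma adjusted p = 0.382). As deposited none of the 3 calls held (-0.16, -0.068 and 0.092), and at a constant sum the fall with estradiol against LFD was 0.33 (limma adjusted p = 0.106) and the rise against placebo 0.31 (limma adjusted p = 0.138). The rise was kept without placebo mouse 4 and without estradiol mouse 1. Rangrf, on the opposite strand, overlaps Slc25a35 by 1882 bases and reached 0.451 scaled FPKM, and the quantification's strand setting is not stated in the sources used here. Slc25a46, an outer membrane protein of mitochondrial fusion and fission, had groups that did not overlap between HFD placebo (1.33 to 1.59) and LFD (1.64 to 1.93), but its log2 fold change of -0.16 did not pass (limma adjusted p = 0.0861). The other 7 carriers of this class were under the tested level, among them Slc25a34 with at most 0.315, Slc25a53 with at most 0.109 and Slc25a47, a liver-enriched carrier, with at most 0.235. Slc25a47 and the basic amino acid carrier Slc25a29 are transcribed away from each other from starts 162 bases apart on chromosome 12, and both were near the floor. Slc25a47 averaged 0.0765 ± 0.0265 in HFD estradiol, 0.0511 ± 0.0331 in HFD placebo and 0.122 ± 0.0749 in LFD, and Slc25a29 averaged 0.0784 ± 0.0163, 0.0484 ± 0.0343 and 0.132 ± 0.0745 in the same groups. These levels rested on an estimated 1.2 to 8.4 fragments a library for Slc25a47 and 1.0 to 8.0 for Slc25a29. Whether they vary together was not tested.

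Groups did not overlap between HFD placebo and LFD for 5 carriers lower in placebo, or 23.8%, against 13% of all tested genes. In the other direction, where 14.6% of all tested genes were, the only such carrier was Slc25a24, whose separation the filter fixed, so nothing is read from it.

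Of the 6 cofactor carriers 4 were tested and 1 changed. Slc25a16, linked to the coenzyme A of the mitochondrial matrix (chromosome 10, 62920633 to 62946498), had 1.20, 1.25, 1.62, 1.51 and 1.58 scaled FPKM in HFD estradiol mice 1 to 5, 0.730, 1.07, 0.905, 1.28 and 1.05 in HFD placebo mice 1 to 5, and 1.43, 1.81, 1.28, 1.19 and 1.33 in LFD mice 1 to 5. Placebo mouse 4 overlapped with both other groups, and the remaining placebo mice were lowest. The log2 fold change was -0.26 (SE 0.08, limma adjusted p = 0.0170) for HFD placebo against LFD and 0.28 (SE 0.08, limma adjusted p = 0.0175) for HFD estradiol against HFD placebo. Neither call held at a constant sum, where the differences were -0.0036 and 0.24 (limma adjusted p = 0.985 and 0.253), or as deposited, where they were 0.45 and 0.0099. At a constant sum without Mir6236, a small RNA entry that took a large share of the FPKM, the first was -0.20 (limma adjusted p = 0.0847). The second call was also lost without placebo mouse 1 (limma adjusted p = 0.0503) and within lane 6 (0.17, limma adjusted p = 0.284).

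Of 6 tested enzymes of cofactor and glutathione metabolism, 2 rose in HFD estradiol against HFD placebo, where 14.3% of all tested genes rose. In HFD placebo against LFD 5 of the 6 fell, where 22% of all tested genes fell. Among the 5 were Mat2a, which makes S-adenosylmethionine, and Gsr, which reduces oxidised glutathione. As deposited the placebo median was 0.44, 1 of the 6 was called higher than in LFD and none was called in estradiol against placebo. At a constant sum the placebo median was -0.05 with 0 called, and 1 was called higher in estradiol against placebo. At a constant sum without Mir6236 these were 3 lower and 2 higher. Pank3, a pantothenate kinase at the entry to coenzyme A synthesis, averaged 13.6 ± 2.53 scaled FPKM in HFD estradiol, 8.01 ± 1.62 in HFD placebo and 14.9 ± 1.26 in LFD. Its log2 fold changes were -0.83 for placebo against LFD (limma adjusted p = 1.0e-04) and 0.70 for estradiol against placebo (limma adjusted p = 7.5e-04).

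Slc25a17, which carries cofactors into peroxisomes, averaged 1.82 ± 0.134, 1.70 ± 0.304 and 1.95 ± 0.375 in HFD estradiol, HFD placebo and LFD. Slc25a51, the NAD carrier, averaged 2.31 ± 0.291 in HFD estradiol, 2.37 ± 0.343 in HFD placebo and 2.22 ± 0.517 in LFD. Neither was called in any comparison. The folate and flavin carrier Slc25a32 and the coenzyme A carrier Slc25a42 did not exceed 0.762 and 0.881.

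Slc25a20, which lets acylcarnitines into the matrix for fatty acid oxidation, was not called. It averaged 2.89 ± 0.667 scaled FPKM in HFD estradiol, 3.24 ± 1.03 in HFD placebo and 3.83 ± 1.41 in LFD, and the 95% interval of the difference of placebo from LFD ran from -0.57 to 0.22. In scaled FPKM the transferases on either side of it moved apart between HFD placebo and LFD. Cpt1a, which makes acylcarnitines at the outer membrane, averaged 2.77 ± 0.346 in HFD estradiol, 4.68 ± 0.316 in HFD placebo and 2.06 ± 0.455 in LFD. It rose by 0.90 on the log2 scale in placebo against LFD (limma adjusted p = 3.9e-06) and its log2 fold change for estradiol against placebo was -0.59 (limma adjusted p = 3.2e-04). Cpt2, which turns acylcarnitines back inside, averaged 4.85 ± 0.464, 3.62 ± 1.20 and 5.18 ± 1.33 in HFD estradiol, HFD placebo and LFD, and fell by 0.43 in placebo against LFD (limma adjusted p = 0.0414). As deposited, 2 of the 4 tested genes of the carnitine shuttle were called higher in placebo against LFD and none lower. At a constant sum 1 was called higher and none lower, so the Cpt2 fall was called in neither. The lower Cpt1a level with estradiol against placebo was not called as deposited. Slc25a26, which imports the methyl donor S-adenosylmethionine, did not exceed 0.379.

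None of the 3 tested carriers of phosphate, metals and glutathione was called in any comparison. Slc25a3, which supplies the phosphate for ATP synthesis, averaged 8.23 ± 0.515 in HFD estradiol, 8.48 ± 1.08 in HFD placebo and 8.35 ± 1.08 in LFD. The 95% interval of its difference ran from -0.24 to 0.17 for estradiol against placebo and from -0.18 to 0.22 for placebo against LFD. Slc25a39 averaged 5.97 ± 1.15 in HFD estradiol, 5.79 ± 1.05 in HFD placebo and 6.52 ± 1.18 in LFD. The iron importer Slc25a28 (mitoferrin 2) averaged 1.44 ± 0.106 in HFD estradiol, 1.40 ± 0.135 in HFD placebo and 1.64 ± 0.418 in LFD. The other iron importer, Slc25a37 (mitoferrin 1), reached 0.855 and the second glutathione carrier Slc25a40 reached 0.423, both under the tested level.

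The uncoupling proteins belong to the same protein family under another name. Their relatives among the carriers, Slc25a14, Slc25a27 and Slc25a30, were under the tested level, with highest values of 0.249, 0.226 and 1.11. Ucp2, which shares the fold and exports carbon acids from the matrix, averaged 2.65 ± 0.699 scaled FPKM in HFD estradiol, 6.93 ± 1.89 in HFD placebo and 1.93 ± 0.518 in LFD. It rose by 1.42 on the log2 scale in placebo against LFD (limma adjusted p = 1.1e-05) and its log2 fold change for estradiol against placebo was -1.10 (limma adjusted p = 2.1e-04). Ucp2 is known from macrophages too, whose markers moved in the same direction, and their part in it was not tested.

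Of the 26 carriers that were not tested, 5 never reached 0.1 scaled FPKM, 14 peaked between 0.1 and 0.5, 4 between 0.5 and 1, and 3 at 1 or more. The 5 lowest were Slc25a21, Slc25a41 (listed at 0 throughout), the testis ADP/ATP carrier Slc25a31 (at most 0.0334), Slc25a48 (at most 0.0659) and Slc25a54 (at most 0.0370). Next to the threshold, Slc25a24 reached 1 in 5 libraries and Slc25a45 in 2. Fitted without the filter, 46 carriers were tested, of which 4 rose and 7 fell in HFD placebo against LFD, or 8.70% and 15.2%, against 11% and 9.67% of all 18880 genes tested so (20.7% in either direction). The 3 further rises were Slc25a13, Slc25a45 and Slc25a43. These 3 also fell in HFD estradiol against HFD placebo, where 3 carriers rose and 4 fell, or 6.52% and 8.70%, against 5.71% and 8.09% of genes (13.8% in either direction).

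Slc25a13, citrin, is a calcium-sensing aspartate-glutamate carrier best known from liver. It had 0.103, 0.0322, 0.0279, 0.0586 and 0.0502 scaled FPKM in HFD estradiol mice 1 to 5, 0.385, 0.381, 0.275, 0.191 and 0.261 in HFD placebo mice 1 to 5, and 0.0612, 0, 0.0219, 0.0564 and 0 in LFD mice 1 to 5. Every placebo mouse lay above every other mouse, though the counts behind these levels are small. They were estimated at 3 to 16 fragments in HFD estradiol, 21.9 to 83.8 in HFD placebo and 0 to 4 in LFD. Its log2 fold change without the filter was 0.34 for HFD placebo against LFD (limma adjusted p = 3.5e-05) and -0.30 for HFD estradiol against HFD placebo (limma adjusted p = 1.8e-04).

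Slc25a45, with no settled substrate, had 0.682, 0.556, 0.609, 0.622 and 0.384 scaled FPKM in HFD estradiol mice 1 to 5, 1.02, 0.854, 1.05, 0.645 and 0.842 in HFD placebo mice 1 to 5, and 0.622, 0.633, 0.348, 0.465 and 0.390 in LFD mice 1 to 5. The placebo mice were above all LFD mice, and placebo mouse 4 overlapped with the estradiol mice. Its log2 fold change without the filter was 0.34 for HFD placebo against LFD (limma adjusted p = 0.0046) and -0.26 for HFD estradiol against HFD placebo (limma adjusted p = 0.0304). Slc25a43 never exceeded 0.143 and rested on at most an estimated 8.1 fragments in a library. The related aspartate-glutamate carrier Slc25a12, known as aralar, averaged 0.443 ± 0.0962 in HFD estradiol, 0.467 ± 0.0961 in HFD placebo and 0.281 ± 0.144 in LFD and was not called without the filter.

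**Figure D4:**
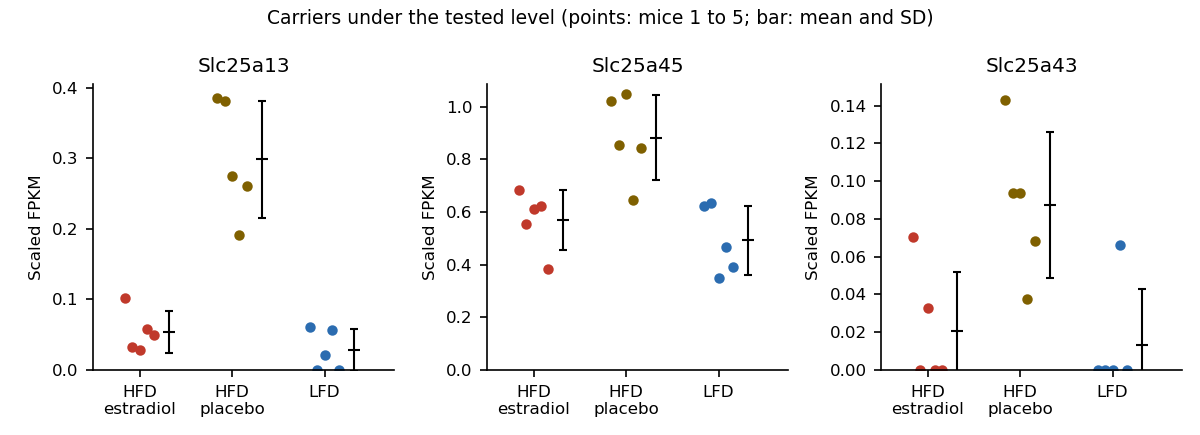
Scaled FPKM of 3 carriers under the tested level, Slc25a13, Slc25a45 and Slc25a43, with 1 point per mouse and bars for mean and SD (n = 5 mice a group). The 5 placebo mice lie at 0.191 or above for Slc25a13, where no other mouse exceeds 0.103.

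Markers of adipocytes and of other cell types moved with the groups in which the carriers changed. Adipoq, which encodes the adipocyte hormone adiponectin, was abundant in every mouse, at 138.8 to 186.8 scaled FPKM in HFD estradiol, 58.4 to 115.5 in HFD placebo and 129 to 192 in LFD. All 12 mature adipocyte markers fell in HFD placebo against LFD (median log2 fold change -0.96) and 10 rose in HFD estradiol against HFD placebo (median 0.72). Their summed level ran from 1733 to 2463 scaled FPKM in HFD estradiol, 961 to 1582 in HFD placebo and 1973 to 2883 in LFD. As deposited the placebo median against LFD was 0.15, with 2 of 12 called lower, and the estradiol median against placebo was 0.38, with 1 called higher. At a constant sum 4 were called lower and 6 higher in these comparisons. All 9 macrophage markers found rose in HFD placebo against LFD (median 2.78) and 9 fell in HFD estradiol against HFD placebo (median -2.11). Their sum ran from 49.0 to 158.5 in HFD estradiol, 179 to 504 in HFD placebo and 38.8 to 104 in LFD. As deposited the 9 still rose in placebo against LFD, with a median of 3.42, and 8 fell in estradiol against placebo, with a median of -2.41. Of the 9, Itgax, Trem2 and Gpnmb reached at most 0.288, 0.389 and 0.627 in LFD, and their lowest estradiol values were 0.224, 0.411 and 0.668. These markers came to the tested level only with their placebo values, so their calls are a description. The part of adipocytes and macrophages in the carrier changes was not tested.

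Some libraries with high brown adipocyte markers, placebo mouse 4 and LFD mouse 2, were also high in carriers. Placebo mouse 4 had the highest level of its group in 15 of the 21 tested carriers, where it was highest in 26.1% of all tested genes. LFD mouse 2 was highest of its group in 16 of 21 carriers, against 27.1% of all tested genes. Other libraries with high brown adipocyte markers did less so. Placebo mouse 3 was highest of its group in 3 of 21, against 20.9%, and estradiol mouse 3 in 7 of 21, against 14%. Estradiol mouse 2, with the lowest brown marker sum of its group, was highest in 6 of 21, against 14.8%. The 10 brown adipocyte markers summed to 26.0 scaled FPKM in estradiol mouse 3 (5.34 to 11.8 in the other estradiol mice), to 66.5 in placebo mouse 4 and 35.2 in placebo mouse 3 (2.73 to 4.33 in the other placebo mice), and to 95.6 in LFD mouse 2 (9.10 to 12.5 in the other LFD mice). Ucp1, the uncoupling protein that defines brown fat, stood at 4.96 in estradiol mouse 3, 26.6 in placebo mouse 4, 13.5 in placebo mouse 3 and 34.2 in LFD mouse 2. Slc25a20 stood at 4.04 in estradiol mouse 3, 4.91 in placebo mouse 4 and 6.04 in LFD mouse 2, each the highest of its group. In placebo mouse 3 it stood at 3.57. The 10 skeletal muscle markers were also uneven. They summed to 16.5 in estradiol mouse 3 (0.522 to 1.27 in the other estradiol mice). In LFD mouse 4 they summed to 30.4 (0.349 to 6.76 in the other LFD mice), and in placebo mice to 1.17 to 2.71. The part of brown adipocytes and of muscle in the carrier levels was not tested.

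The 4 libraries highest in brown adipocyte markers were left out, a choice made after seeing the data. Without them 7 of the 8 carriers called between HFD placebo and LFD were called again, where 37.2% of all tested genes were. Slc25a22 was the exception (-0.42, limma adjusted p = 0.0748), and Slc25a44 was called in HFD estradiol against HFD placebo (0.43, limma adjusted p = 0.0174). None of the 4 tested brown adipocyte markers was called in any comparison. Of the 12 markers of prostate and seminal vesicle epithelium none was at the tested level, though LFD mouse 5 had 125 scaled FPKM of the seminal vesicle gene Spink3, with at most 0.187 elsewhere.

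**Figure D5:**
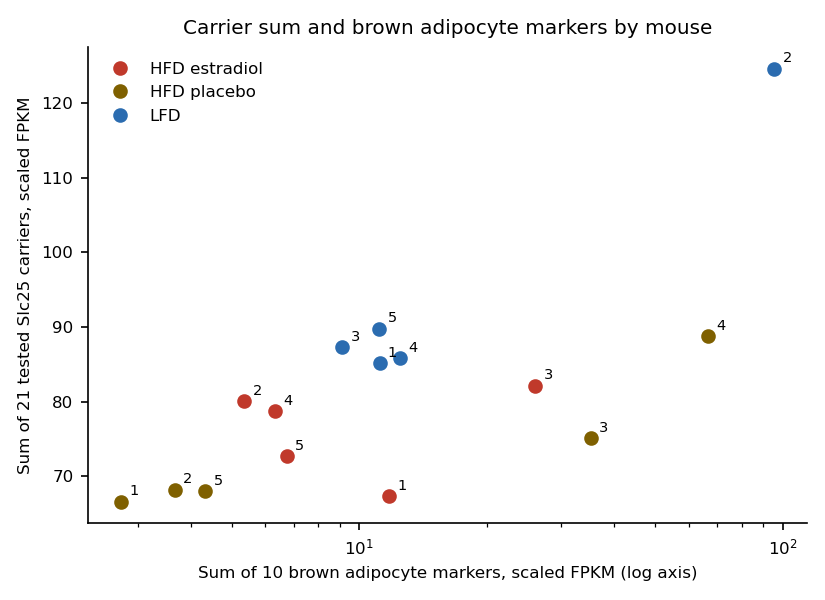
Summed scaled FPKM of the 21 tested carriers in each mouse against the summed scaled FPKM of 10 brown adipocyte markers on a log axis, with mice numbered within their group. Placebo mouse 4 stands at 88.8 for carriers and 66.5 for brown markers, above the other placebo mice on both axes, and LFD mouse 2 at 124.6 and 95.6, above every other mouse on both.

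The remaining mitochondrial lists put the carriers beside their neighbours. Over all tested genes 22% fell and 21.3% rose in HFD placebo against LFD, and 16% fell in HFD estradiol against HFD placebo. Of 9 tested outer membrane channels and import factors none was called between HFD placebo and LFD, and 1 fell in HFD estradiol against HFD placebo, the channel Vdac2 (-0.32, limma adjusted p = 0.0080). As deposited and at a constant sum none of the 9 was called in the latter comparison. Of 9 tested inner membrane transporters outside the family 3 fell in HFD placebo against LFD (Mpc1, Mpc2 and the serine transporter Sfxn1) and 1 rose, the sodium-calcium-lithium exchanger Slc8b1. Slc8b1 lay at 0.793 to 1.09 in HFD estradiol, 1.01 to 1.52 in HFD placebo and at most 0.936 in LFD. It came to the tested level only with its placebo values, so its call is a description. Sfxn1 averaged 2.97 ± 0.235 scaled FPKM in HFD estradiol, 1.73 ± 0.243 in HFD placebo and 4.79 ± 1.20 in LFD. Of 5 tested genes of the malate-aspartate and glycerol phosphate shuttles 3 fell in HFD placebo against LFD. As deposited the medians of the channel, inner membrane and shuttle lists for placebo against LFD were 0.82, 0.62 and 0.64, with 6, 4 and 1 genes called higher and none lower. Of 5 tested haem and iron-sulphur enzymes 1 fell in HFD placebo against LFD, Fech, which inserts iron into haem (-0.26, limma adjusted p = 0.0101). As deposited and at a constant sum, with or without Mir6236, none of the 5 was called.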

How the data were processed

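Per the labels' protocols, stranded libraries were made from total RNA (RNA integrity number above 7) after removal of ribosomal RNA. STAR, Cufflinks and mm10 are named, without versions, in the submitters' processing notes. For each library the authors deposited FPKM by gene symbol. The annotation, the strand setting and the handling of reads shared by several genes are not stated in the sources used here.

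The Slc25 members and the partner and marker lists were chosen with earlier results of these data known. FPKM were divided by median-of-ratios factors taken over the 5874 genes with no 0 in any library and a mean FPKM of 1 or more. The 5615 genes that reached a scaled FPKM of 1 in 5 or more libraries were tested as log2(scaled FPKM + 1) with limma 3.58.1 (trend and robust) in R 4.3.3, over 15 libraries with group as the only factor. P-values were adjusted by the Benjamini-Hochberg method across all tested genes, separately for each comparison. The fit was tested on simulated data. Carriers given mouse by mouse are those called, up to 5 per direction and comparison, with Slc25a13 and Slc25a45 added after their values were seen. The values of 1 tested carrier are not reported here, though it remains in all fits and counts. Partner genes named are list members called beside the carrier of their substrate.

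No read counts were used, and fragments were estimated from the spacing of the lowest FPKM values. In each library 54.2% to 65.6% of those values were whole multiples of 1 unit to within 2%, so the estimates give no interval. Lanes were read from file names. Libraries of a group correlated at 0.927 to 0.979. Positions are from GENCODE vM21 (GRCm38) and promoters from RefSeq (GRCm38.p6). The alternatives changed the pseudocount to 0.1, the filter, the scaling, the lane term, the replicate block, the groups fitted and single libraries.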

Additional observations from a re-analysis of the deposited data

Results flagged for a closer look

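Levels of every tested carrier, and of the 3 untested carriers named in the text, were searched in each group for a mouse far from the other 4, and 7 of 72 sets of 5 mice held one. About 5% of sets would hold one by chance. Slc25a22 stood at 1.62 scaled FPKM in estradiol mouse 4, with 1.10 to 1.21 in the other estradiol mice, and Slc25a28 at 1.624 in estradiol mouse 3, with 1.36 to 1.41 in the others. Placebo mouse 4 stood apart for Slc25a1, at 14.58 with 9.75 to 10.7 in the other placebo mice, and for Slc25a35, at 1.221 with 0.551 to 0.683 in the others. LFD mouse 2 stood apart for Slc25a11, at 3.581 with 2.07 to 2.42 in the other LFD mice, and for Slc25a51, at 3.103 with 1.76 to 2.15 in the others. Slc25a43 stood at 0.066 in LFD mouse 4 and at 0 in the other LFD mice, on an estimated 1.3 fragments. Placebo mouse 4 and LFD mouse 2 were the mice with the highest sum of brown adipocyte markers in their groups, and the part of brown adipocytes in these values was not tested.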

How the results depend on the processing

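Called carriers in HFD placebo against LFD numbered 1 higher and 7 lower. The higher count was 4 without the filter, 5 with FPKM as deposited and 2 at a constant sum. The lower count was 0 with FPKM as deposited and 2 at a constant sum. In HFD estradiol against HFD placebo, with 4 higher and 1 lower, the higher count was 0 as deposited, 1 at a constant sum, 2 at a constant sum without Mir6236 (a small RNA entry with 10.2% to 53.1% of the FPKM), 1 with lane as a term and 1 within lane 6. The lower count was 4 without the filter and 0 as deposited, with lane as a term and within lane 6. The 2 carriers lower in HFD estradiol than in LFD became 0 as deposited, at a constant sum and with lane as a term. The cause was not tested.

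As deposited, HFD placebo minus LFD changed sign to 0.37 for Slc25a1, 0.45 for Slc25a16, 0.28 for Slc25a22, 0.75 for Slc25a4, 0.21 for Slc25a44 and 1.05 for Slc25a5 (limma adjusted p = 0.0414), where the median of all tested genes was 0.77. Slc25a4 stood at 0.10 at a constant sum and at -0.022 as deposited for HFD estradiol minus HFD placebo.

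Leaving out 1 mouse gave 6 to 9 lower and 1 higher in HFD placebo against LFD, 2 to 5 higher (2 without placebo mouse 1) and 1 lower in HFD estradiol against HFD placebo, and 2 to 3 lower in HFD estradiol against LFD. A pseudocount of 0.1 and fits of only the groups compared kept all 15 calls. Mice with the same replicate number did not deviate together (correlations from -0.21 to 0.36, and 6 of 30 cases best correlated with their own number), so the numbers share only a name. With the replicate block 1 carrier rose and 8 fell in HFD placebo against LFD, 5 rose and 1 fell in HFD estradiol against HFD placebo, and 2 fell in HFD estradiol against LFD.

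In a transcript of 2 kb, 1 scaled FPKM stands for about 20.7 estimated fragments in the shallowest LFD library. Low carriers are the least precise, and 3 of the 26 untested ones were called without the filter.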
